A study of Homo sapiens with 24 samples.

Results

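The proteasome is the large protease that degrades ubiquitin-tagged proteins. Its barrel, the 20S core, stacks rings of alpha subunits on rings of beta subunits, and the beta subunits PSMB5, PSMB6 and PSMB7 carry the active sites. The 19S cap, made of a ring of ATPases and a set of non-ATPase subunits, recognises, unfolds and feeds in the substrate. In interferon-treated and immune cells PSMB8, PSMB9 and PSMB10 take the places of PSMB5, PSMB6 and PSMB7 in the immunoproteasome. Full-length SETD2, the enzyme that trimethylates histone H3 on lysine 36, is itself degraded by this machine. Here the transcripts of the proteasome are described across the RNA-seq libraries of a study of SETD2 and its shortened, more stable form SETD2 C.

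The members were all genes whose symbol is PSM followed by one of the letters A to G and a number, in both deposited tables. The rule found 48 of the 58884 genes listed. They comprised 7 alpha subunits (PSMA1 to PSMA7), 7 constitutive beta subunits (PSMB1 to PSMB7), 5 inducible or tissue-specific core subunits (PSMA8 and PSMB8 to PSMB11), 6 ATPases (PSMC1 to PSMC6), 11 non-ATPase cap subunits, 3 chaperones of cap assembly (PSMD5, PSMD9 and PSMD10), 4 activators (PSME1 to PSME4), 1 inhibitor (PSMF1) and 4 chaperones of core assembly (PSMG1 to PSMG4). Of these, 45 passed the filter on low TPM in batch 1 and 44 in batch 2. PSMA8, PSMB8 and PSMB11 failed it in both, and PSMD5 failed it in batch 2.

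All libraries came from HEK293T, an immortal human embryonic kidney line. Batch 1 held 2 WT and 2 KO libraries, where KO cells had both copies of endogenous SETD2 disrupted. Batch 2 held 2 KO libraries, 2 of KO cells given full-length SETD2 (SETD2 FL) and 2 of KO cells given residues 1404 to 2564 (SETD2 C, N3 in the labels). The constructs were tagged, were delivered by transfection and were driven by a CMV promoter, whereas the KO and WT libraries are labelled untreated, so transfection and SETD2 cannot be told apart when SETD2 FL or SETD2 C is set against KO. Whether the KO cells are a single clone was not given in the sources used here. Levels are given as TPM, transcripts normalised to transcript length and to the library total, so levels of different genes can be compared within a library. The depth of the libraries cannot be read from TPM. The batches were tabulated separately, and no difference between them was tested. SETD2 itself was at 12.6 and 14.8 TPM in WT, 16.2 and 16.3 in KO of batch 1, 11.99 and 12.15 in KO of batch 2, 439 and 422 in SETD2 FL libraries, and 1329 and 1264 in SETD2 C libraries. The KO label was thus not reflected in the amount of SETD2 transcript. With SETD2 C the SETD2 transcript was higher than with SETD2 FL, by a log2 fold change of 1.46 (adjusted p = 7.06e-06 from limma). The paper reports that the mRNA levels of the constructs did not differ significantly. Between SETD2 C and SETD2 FL, truncation and transcript amount thus cannot be told apart here. Mitochondrially encoded transcripts took 23.2% of the TPM in the first WT library and at most 14.1% in the other 3 of batch 1, and 2.93 to 11.0% in batch 2, lowest in both SETD2 C libraries. Of the HEK293T markers, NEFM was at 111 to 341 TPM and NEFL at 44.3 to 168, and PAX2 was low at 0.99 to 2.21. NEFM and NEFL were both higher with SETD2 C than in KO, by log2 fold changes of 1.20 (adjusted p = 7.99e-05 from limma) and 1.22 (adjusted p = 1.35e-05), and NEFL was also called higher in KO than in WT.

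Before the values, the upstream sequences of the members that moved furthest with SETD2 C are shown, because proteasome genes are classically controlled through their promoters. The transcription factor NRF1, encoded by NFE2L1, binds antioxidant response elements together with small MAF proteins and drives most proteasome genes when proteolysis is short, while interferon-regulated factors drive the immunoproteasome. The RefSeq promoter table (GRCh38.p14, from 250 bases before to 50 after each start site) held 42 of the 48 members, in 51 promoters. PSMA7, PSMB1, PSMB6, PSMB7, PSMD4 and PSMG3 were not in it. Capitals mark matches to any of the motifs searched on both strands, which were the antioxidant response element core TGACNNNGC, the interferon-regulatory-factor core GAAANNGAA, the GAS core TTCNNNGAA, the CCAAT box CCAAT, the GC box GGGCGG and the ETS core CCGGAAG. In the 3 sequences below, no match overlapped a match to another motif. They are the 250 bases before the start site of PSMB9 (chr6:32853942-32854191, plus strand), which rose furthest, and of PSMB10 (chr16:67936851-67937100, minus strand) and PSME3 (chr17:42833147-42833396, plus strand), which fell furthest.
PSMB9: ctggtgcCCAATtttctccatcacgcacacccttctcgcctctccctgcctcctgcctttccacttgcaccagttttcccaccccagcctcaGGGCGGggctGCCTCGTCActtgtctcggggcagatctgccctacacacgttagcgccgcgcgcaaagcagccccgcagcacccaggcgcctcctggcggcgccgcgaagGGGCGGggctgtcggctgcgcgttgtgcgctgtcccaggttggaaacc
PSMB10: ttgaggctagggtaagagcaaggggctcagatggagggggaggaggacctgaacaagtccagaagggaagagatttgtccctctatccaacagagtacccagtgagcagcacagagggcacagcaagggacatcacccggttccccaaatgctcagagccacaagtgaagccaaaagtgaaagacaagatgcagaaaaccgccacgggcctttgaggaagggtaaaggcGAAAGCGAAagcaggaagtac
PSME3: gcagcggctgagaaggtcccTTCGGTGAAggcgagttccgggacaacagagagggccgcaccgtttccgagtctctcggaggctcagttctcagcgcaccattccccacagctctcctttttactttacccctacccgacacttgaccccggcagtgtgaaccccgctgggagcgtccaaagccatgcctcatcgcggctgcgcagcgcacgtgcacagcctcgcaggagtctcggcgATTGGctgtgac
The PSMB9 stretch held a match to the antioxidant response element core, a CCAAT box and GC boxes. The PSMB10 stretch held the interferon-regulatory-factor core, 21 bases before the start site. The PSME3 stretch held a GAS core and, 12 bases before the start site, a CCAAT box read on the opposite strand. These are matches of letters and not shown binding sites.

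The antioxidant response element core stood in the promoter of 15 of the 42 matched members, or 35.7%, against 16.1% of the 27305 genes in the promoter table. The 15 held 17 matches, 14 of them before the start site, and none overlapped a match to another motif searched. Of these 14, 6 are shown as examples with 8 bases on each side, the core in capitals and written on the strand on which it reads 5′ to 3′.
PSMC5 (chr17:63827656-63827680, minus): ggcggcgcTGACACAGCagatccgg
PSMD12 (chr17:67366726-67366750, minus): acaaaaccTGACGCTGCaggctgga
PSMD5 (chr9:120843040-120843064, minus): gctacagtTGACACGGCcctaacgg
PSME2 (chr14:24146769-24146793, minus): ctggactgTGACCCAGCcagcaccg
PSMG1 (chr21:39183618-39183642, minus): ccagggcaTGACAGCGCgggcgggc
PSMB9 (chr6:32854036-32854060, minus): gagacaagTGACGAGGCagccccgc
The ETS core was also found in 15 members, against 12.2% of all genes, and the interferon-regulatory-factor core in 8 members, against 9.86%. That group of 8 held PSMB8, PSMB10, PSME1 and PSME2, all known interferon-inducible genes, and also PSMA4, PSMB4, PSMC2 and PSMG4. The inducible PSMB9 was not among them. The GAS core was in 8 members against 9.38% of genes, the CCAAT box in 20, or 47.6%, against 39.7%, and the GC box in 29, or 69.0%, against 48.3%.

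Proteasome transcripts were abundant in every library. All but 5 members exceeded 10 TPM throughout, and those 43 lay between 20.2 and 834 TPM. The most abundant was the alpha subunit PSMA4, at 486 to 834 TPM. Levels differed within each ring although its subunits are built in at equal number. Over batch 2, the mean of the most abundant alpha subunit was 3.51 times that of the least abundant (PSMA4 and PSMA5), and the corresponding ratios were 2.77 for the constitutive beta subunits (PSMB4 and PSMB2), 3.84 for the ATPases (PSMC1 and PSMC2) and 4.19 for the non-ATPase cap subunits (PSMD4, a ubiquitin receptor, and PSMD12). Summed over all 48 members, proteasome TPM was 6644 and 7487 in WT, 8440 and 8536 in KO of batch 1, 7083 and 6954 in KO of batch 2, 7097 and 7420 in SETD2 FL libraries and 7235 and 7141 in SETD2 C libraries. WT lay below KO in batch 1 without overlap before scaling, and the 3 groups of batch 2 lay close together.

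**Figure D1:**
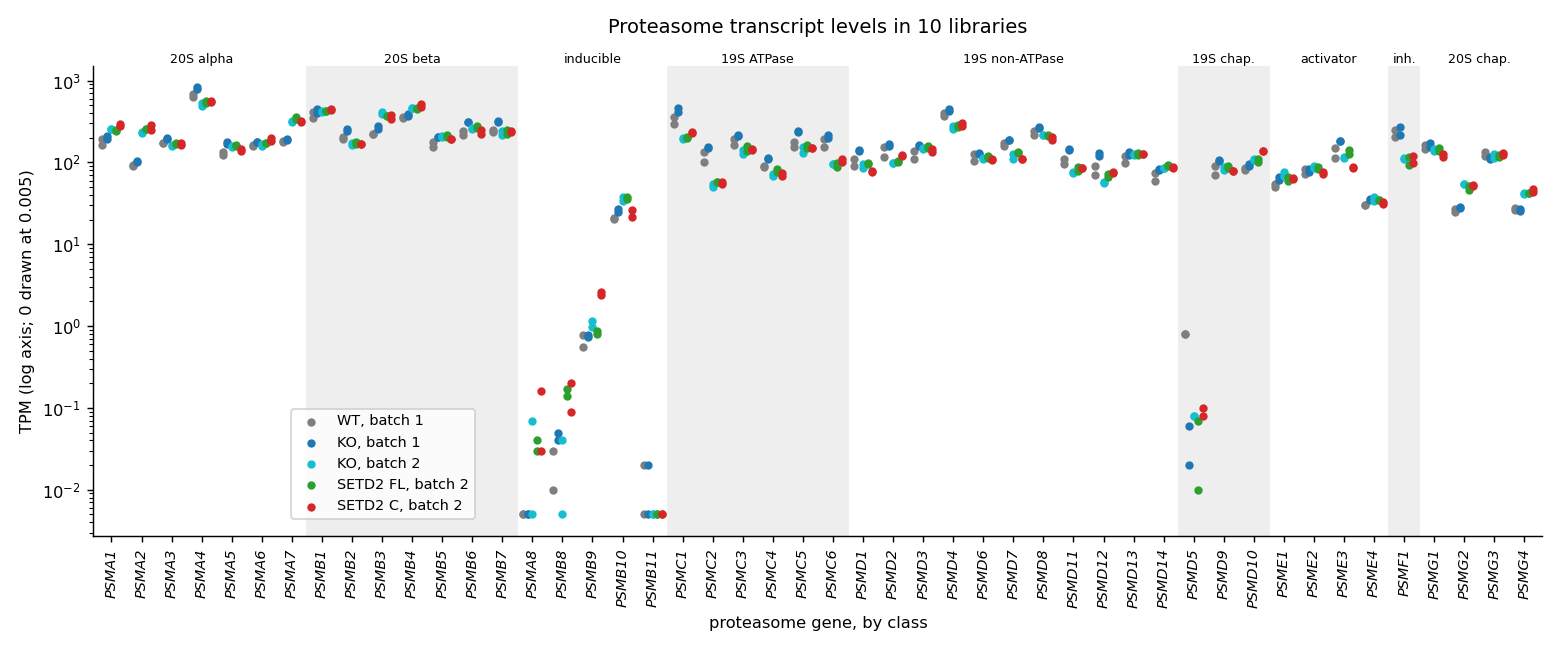
TPM of each of the 48 proteasome genes (horizontal axis, grouped by class) in each of 10 libraries on a log axis, with values of 0 drawn at 0.005; each point is a library, coloured by group. All but PSMA8, PSMB8, PSMB9, PSMB11 and PSMD5 sit above 10 TPM in every library.

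The KO libraries did not show the same balance of subunits in both tables. Among the 44 members with a mean of at least 0.5 TPM in KO of each batch, the batch 2 mean exceeded that of batch 1 by over 1.5 times for 4 and fell below it by as much for 15. The most different were PSMA2, at 100 and 104 TPM in batch 1 and 236 and 231 in batch 2, and the ATPase PSMC2, at 149 and 155 in batch 1 and 54.4 and 49.4 in batch 2. PSMC1 was at 415 and 458 TPM in batch 1 and 199 and 192 in batch 2. These differences stand between separately made tables and were not tested, and comparisons of conditions were therefore made within a batch.

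The 5 members outside that range were the inducible or tissue-specific core subunits other than PSMB10, together with PSMD5. PSMB11, the thymus-specific catalytic subunit, was listed at 0 in all 6 libraries of batch 2 and at no more than 0.02 TPM in batch 1. PSMA8, the alpha subunit of germ cells, was listed at 0 in batch 1 and reached 0.16 TPM in 1 SETD2 C library, with 0.03 in the other. In batch 2 it was otherwise at 0 and 0.07 in KO and at 0.03 and 0.04 with SETD2 FL. The germ cell markers TNP1 and PRM1 were at 0 in all libraries, and the 4 germ cell markers together summed to 0.06 to 0.38 TPM. PSMB8, the inducible counterpart of PSMB5, was at 0.03 and 0.01 TPM in WT, 0.05 and 0.04 in KO of batch 1, 0 and 0.04 in KO of batch 2, 0.14 and 0.17 in SETD2 FL libraries, and 0.20 and 0.09 in SETD2 C libraries. Transfected libraries were the highest, but all values lay below the filter and were not tested.

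PSMB9, the inducible counterpart of PSMB6, was at 0.77 and 0.55 TPM in WT, 0.74 and 0.78 in KO of batch 1, 0.97 and 1.14 in KO of batch 2, 0.88 and 0.81 in SETD2 FL libraries, and 2.64 and 2.43 in SETD2 C libraries. Both SETD2 C libraries stood clear of all others. PSMB10, the inducible counterpart of PSMB7 that HEK293T cells express most, was at 21.1 and 20.2 TPM in WT, 27.0 and 25.0 in KO of batch 1, 37.5 and 34.0 in KO of batch 2, 35.7 and 37.3 in SETD2 FL libraries, and 26.2 and 21.4 in SETD2 C libraries. Here the SETD2 C libraries were the lowest of batch 2, so these inducible subunits moved in opposite directions. The levels of PSMB9 remained small beside its constitutive counterpart, at a mean of 0.408% of PSMB6 in KO, 0.313% with SETD2 FL and 1.09% with SETD2 C. PSMB10 was at a mean of 15.8% of PSMB7 in KO, 15.4% with SETD2 FL and 9.95% with SETD2 C, and at 8.59% in WT and 8.24% in KO of batch 1. PSMB8 was at 0 to 0.103% of PSMB5.

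**Figure D2:**
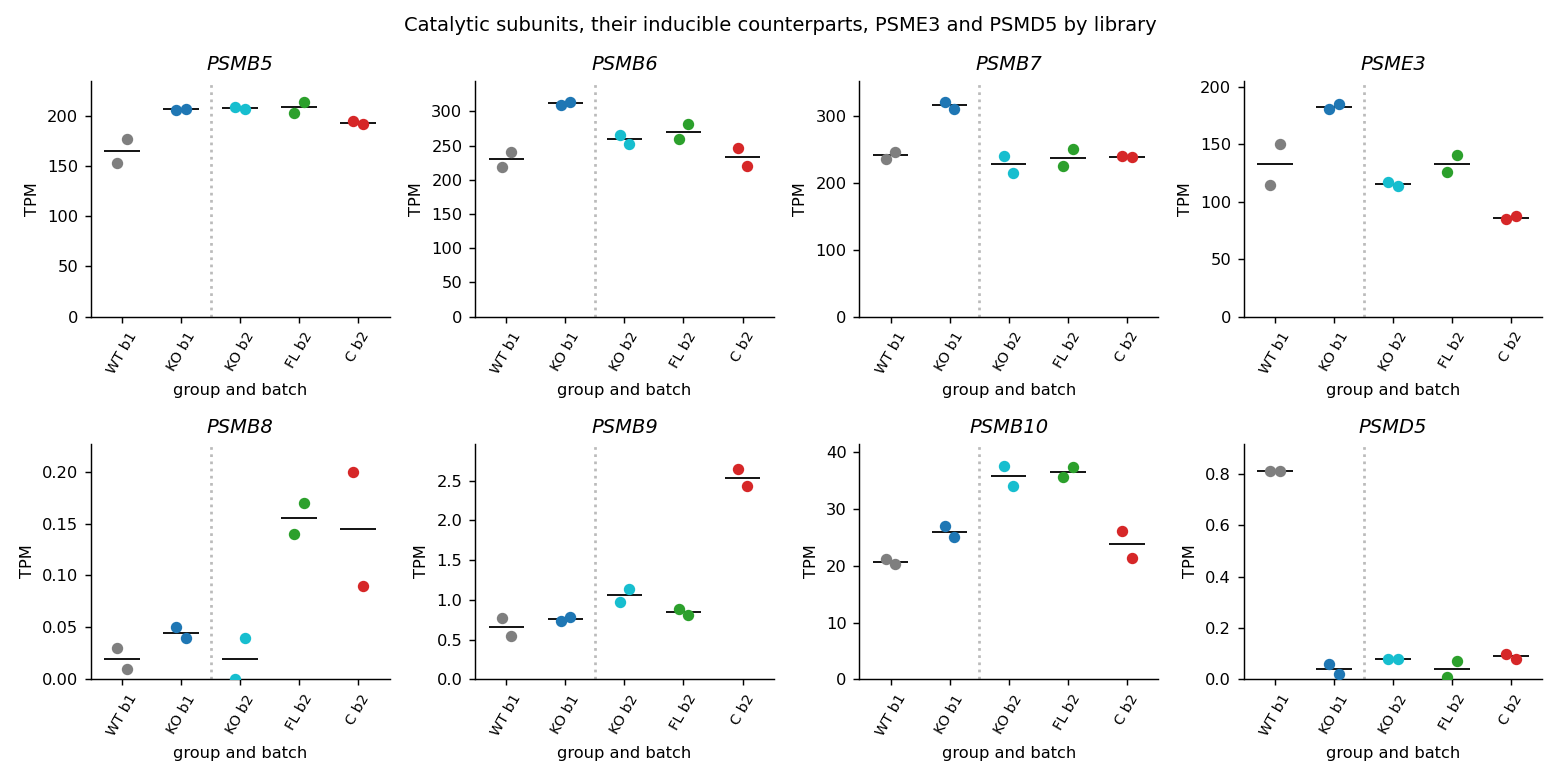
TPM by library (points) and group mean (line) for the catalytic subunits PSMB5, PSMB6 and PSMB7, the inducible PSMB8, PSMB9 and PSMB10, the activator PSME3 and the chaperone PSMD5; b1 and b2 are batch 1 and batch 2, separated by a dotted line, and every vertical axis starts at 0. With SETD2 C, PSMB9 is at 2.64 and 2.43 TPM while PSMB10 and PSME3 lie below both other groups of batch 2, and PSMD5 is above 0.5 TPM only in WT.

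PSMB9 on chromosome 6 (GRCh38 32844136 to 32859851, plus strand, 6 exons) overlaps PSMB8 on the opposite strand at its beginning. It also overlaps TAP1 on the opposite strand, which had a mean of 13.6 TPM in batch 2. The RefSeq start site of PSMB9 lies 488 bases from that of TAP1. TAP1 is transcribed away from that site and encodes a chain of the peptide transporter that works with the immunoproteasome. TAP1 was at 10.2 and 13.8 TPM in KO, 15.6 and 13.8 in SETD2 FL libraries, and 14.0 and 14.1 in SETD2 C libraries, and did not pass the test in any comparison. The file does not say whether reads were counted by strand, so overlapping genes may share reads. Of the 48 members, 21 overlap another gene above 1 TPM, 5 of them on the same strand, including PSMA2, PSMB10 and PSMC2. PSMC1 has the processed copies PSMC1P1, at 9.57 to 13.6 TPM in batch 1 and 1.99 to 3.22 in batch 2, and PSMC1P5, at 0 in batch 1 and 0 to 45.6 in batch 2, so the level of PSMC1 is uncertain to that extent.

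SETD2 C was compared with KO and with SETD2 FL to ask which transcripts change when the shortened protein is expressed. With SETD2 C, the inducible PSMB9 rose, PSMB10 fell, all 4 activators were lower than in KO, and the catalytic PSMB5 and PSMB6 fell slightly. Relative to KO, 18 of the 44 members tested fell and 4 rose (limma, Benjamini-Hochberg adjusted p of at most 0.05 over 15933 genes). The background was 15.1% of all genes lower and 21.1% higher. Members are abundant transcripts, and among the 5483 genes with a mean of at least 20 TPM the share lower was 28.7%, against 41.9% (18 of 43) of the members at that level. Under the rule of a 2-fold change in addition to the adjusted p, which 4.06% of all genes met in either direction, no member was called. At a pseudocount of 0.1 in place of 0.5, the log2 fold change of PSMB9 was 1.05 (adjusted p = 0.0056). Relative to SETD2 FL, 19 members fell and 2 rose, against 16.8% of all genes lower and 21.4% higher, and 29.9% lower among the abundant genes. PSMB9 was then the 1 member past a 2-fold change, a rule met by 3.78% of genes. These comparisons share the SETD2 C libraries and are not independent of each other. Leaving out 1 library gave 7 to 13 members lower than KO, with 7 without SETD2 C replicate 2 and 10 without KO replicate 2, and 2 higher without KO replicate 2 or either SETD2 C library. Relative to SETD2 FL, 12 were lower without SETD2 C replicate 2. Markers of other cells moved in the same comparison. The 4 fibroblast markers summed to 6.97 to 14.3 TPM over the libraries. COL1A1 was higher with SETD2 C than in KO (0.55, adjusted p = 0.0079 from limma), while COL1A2 and DCN were at or near 0. LUM was at 0.35 and 0.45 TPM in KO, 0.67 and 0.91 in SETD2 FL libraries, and 1.79 and 1.2 in SETD2 C libraries. It passed the filter on low TPM through the transfected libraries alone, so its difference from KO is described without a test. The part of these markers in the members' values was not tested.

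The balance of falls and rises depended on how TPM was scaled between libraries. After scaling by median ratios the members' median log2 fold change of SETD2 C over KO was -0.11, against 0.05 for all genes tested. Without scaling it was 0.04 against 0.18, with 7 members higher and 5 lower, so the direction of the members' median flips. Under quantile normalization it was -0.05 against -0.03, and with TPM recomputed without mitochondrially encoded genes and SETD2 it was -0.01 against 0.13. Relative to SETD2 FL the members' median was -0.16 against 0.04, and it stayed below 0 in these alternatives, at -0.03, -0.08 and -0.13. The members' median lay below that of all genes under each of the 4 scalings in both comparisons, by 0.02 to 0.16 relative to KO and by 0.06 to 0.20 relative to SETD2 FL. Among genes with a mean of at least 20 TPM the median of all genes was itself -0.07 relative to KO, and that of the 43 members was -0.11. Calls in the same direction under all 4 scalings were made for 5 lower members relative to KO (PSMB10, PSMD1, PSME2, PSME3 and PSMG1) and 4 higher (PSMB9, PSMD2, PSMD10 and PSMD12). Relative to SETD2 FL they were made for 7 lower (PSMA5, PSMB6, PSMB10, PSMD1, PSMD7, PSME3 and PSMG1) and 2 higher (PSMB9 and PSMD10).

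**Figure D3:**
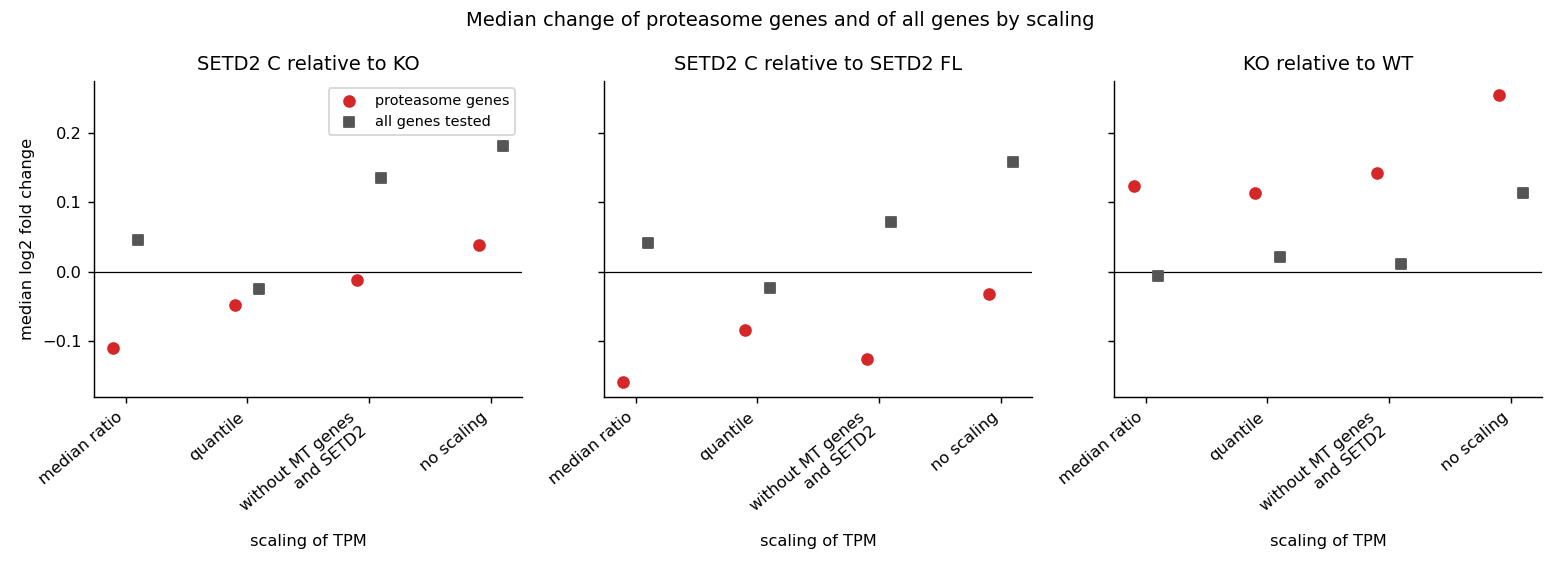
Median log2 fold change (vertical axis) of the tested proteasome genes (red circles) and of all genes tested (grey squares) under 4 scalings of TPM (horizontal axis) in 3 comparisons. Members lie below all genes in both SETD2 C comparisons and above them for KO relative to WT, but the sign of their median relative to KO changes without scaling.

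Among the active-site subunits, PSMB5, the chymotrypsin-like site, was at 209 and 207 TPM in KO, 203 and 214 in SETD2 FL libraries, and 195 and 192 in SETD2 C libraries. PSMB6, the caspase-like site, was at 266 and 253 TPM in KO, 260 and 281 in SETD2 FL libraries, and 246 and 220 in SETD2 C libraries. PSMB7, the trypsin-like site, was at 240 and 214 in KO, 224 and 251 in SETD2 FL libraries, and 240 and 238 in SETD2 C libraries. The SETD2 C libraries were the lowest for PSMB5 and PSMB6 and lay within the others for PSMB7. The scaled log2 fold change over KO was -0.25 (SE 0.05, adjusted p = 0.0053 from limma) for PSMB5 and -0.30 (SE 0.07, adjusted p = 0.010) for PSMB6, and neither passed without scaling. PSMB6 also lost its call without KO replicate 2 (adjusted p = 0.052) or SETD2 C replicate 2 (0.060). PSMB7 did not pass (95% interval of the log2 fold change -0.22 to 0.08).

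For the inducible subunits, the log2 fold change of PSMB9 was 0.85 over KO (SE 0.15, adjusted p = 0.0041 from limma) and 1.07 over SETD2 FL (SE 0.15, adjusted p = 0.0014). The pseudocount of 0.5 makes these values smaller than the ratio of TPM, since PSMB9 is near 1 TPM. PSMB10 had -0.73 over KO (SE 0.10, adjusted p = 0.0014 from limma) and -0.74 over SETD2 FL (SE 0.10, adjusted p = 0.0011). Both genes kept their call with each library left out in turn. The haematopoietic markers, which would accompany immunoproteasome-bearing cells, were low, with 3 of 6 tested and a sum of 4.30 to 17.1 TPM over the libraries, highest with SETD2 C. All 3 tested were called higher with SETD2 C than in KO, among them HLA-DRA by 1.69 (adjusted p = 3.45e-05 from limma). HLA-DRA was also called higher with SETD2 FL than in KO, by 0.75 (adjusted p = 0.039 from limma). In batch 1, CD68 was called higher in KO than in WT, by 1.59 (adjusted p = 0.0036 from limma). There HLA-DRA was at 0.42 and 0.33 TPM in WT and 1.71 and 1.46 in KO. PTPRC and CD3E were at or near 0. Their part in these values was not tested.

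The activators open the core barrel without the ATPase cap. PSME3, which forms the nuclear activator, was at 118 and 114 TPM in KO, 126 and 141 in SETD2 FL libraries, and 84.8 and 87.7 in SETD2 C libraries. The SETD2 C libraries lay below the other 4 without overlap, and the log2 fold change was -0.57 over KO (SE 0.06, adjusted p = 0.000423 from limma) and -0.75 over SETD2 FL (SE 0.06, adjusted p = 0.00011). PSME1 and PSME2 form the interferon-inducible activator. PSME1 was at 67.9 and 76.5 TPM in KO, 59.8 and 65.5 in SETD2 FL libraries, and 63.9 and 62.2 in SETD2 C libraries. Its log2 fold change over KO was -0.34 (SE 0.07, adjusted p = 0.0088 from limma) and lost the call without scaling (adjusted p = 0.071) and without SETD2 C replicate 2 (0.054). Over SETD2 FL it did not pass (-0.12, adjusted p = 0.22 from limma). PSME2 was at 90.5 and 85.7 TPM in KO, 82.1 and 87.9 in SETD2 FL libraries, and 77.2 and 72.6 in SETD2 C libraries. Its log2 fold change was -0.38 over KO (SE 0.06, adjusted p = 0.0024 from limma) and -0.31 over SETD2 FL (SE 0.06, adjusted p = 0.0049, and 0.055 without scaling). PSME4, the large single-chain activator, was at 38.3 and 33.6 TPM in KO, 34.4 and 34.4 in SETD2 FL libraries, and 30.6 and 32.8 in SETD2 C libraries, a log2 fold change over KO of -0.32 (SE 0.075, adjusted p = 0.013 from limma). That call was lost without scaling (adjusted p = 0.11), with TPM recomputed without mitochondrially encoded genes and SETD2 (0.057), and without KO replicate 2 (0.075) or SETD2 C replicate 1 (0.071). The summed TPM of the 4 activators was 314 and 309 in KO, 302 and 328 in SETD2 FL libraries, and 257 and 255 in SETD2 C libraries. After scaling the sum with SETD2 C differed from KO by -26.0%, and without scaling by -17.9%. Exact permutation of 2 against 2 libraries, two-sided, gave p = 0.333, the smallest that this design allows, here and for every class sum whose groups did not overlap. The inhibitor PSMF1 was at 110 and 113 TPM in KO, 91.8 and 115 in SETD2 FL libraries, and 119 and 98.3 in SETD2 C libraries, and it did not pass over KO (-0.19, adjusted p = 0.21 from limma). Its unscaled groups overlapped.

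**Figure D4:**
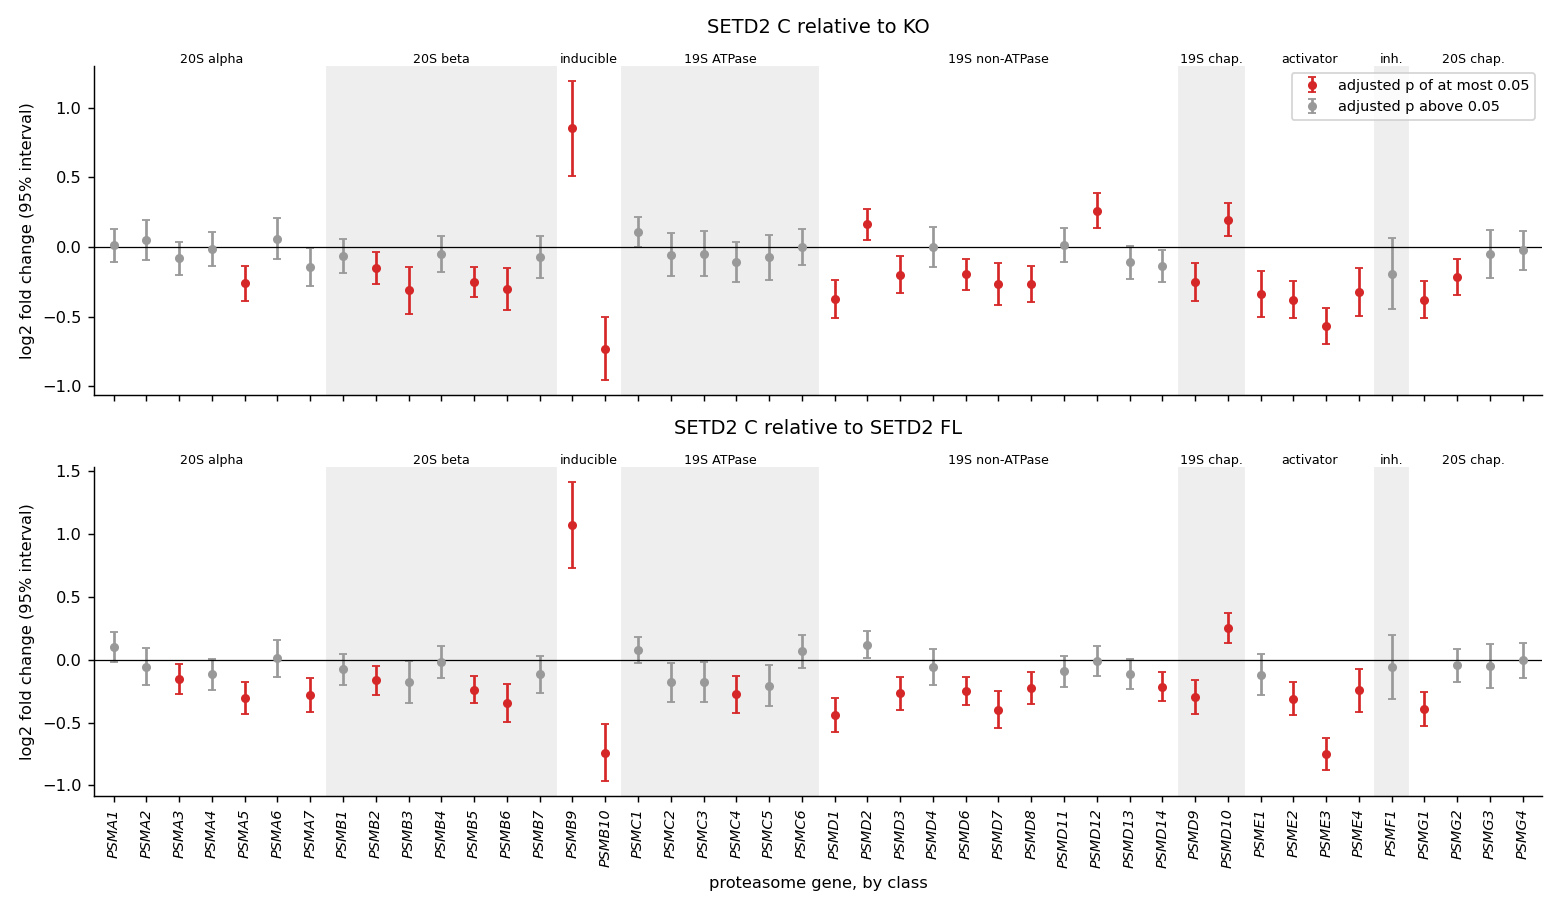
Fitted log2 fold change with its 95% interval (vertical axis) of 44 proteasome genes by class (horizontal axis) for SETD2 C over KO (top) and over SETD2 FL (bottom), each from 2 libraries a group; red marks an adjusted p of at most 0.05. The 4 activators lie below 0 in both panels, while no ATPase is called relative to KO.

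The rest of the 20S core is described by class. Of the 7 alpha subunits only PSMA5 was called relative to KO, and the summed TPM of the class was 1802 and 1780 in KO and 1918 and 1935 with SETD2 C, a difference of -2.90% after scaling and of 7.61% without. Of the 7 constitutive beta subunits PSMB2, PSMB3, PSMB5 and PSMB6 were called lower, and all 7 had a fitted value below 0 after scaling. PSMB3 had -0.31 over KO (SE 0.07, adjusted p = 0.013 from limma), a call that did not hold under all 4 scalings. The sum of the 7 differed from KO by -10.4% after scaling and by -0.741% without.

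In the cap, none of the 6 ATPases was called relative to KO by limma, with 1 at an unadjusted p under 0.05, and PSMC4 alone was called, lower, relative to SETD2 FL. Of the 11 non-ATPase subunits, 5 were lower than in KO (PSMD1, PSMD3, PSMD6, PSMD7 and PSMD8) and 2 were higher (PSMD2 and PSMD12). PSMD1 and PSMD2 are the largest cap subunits and act as scaffolds, and they parted. PSMD1 was at 95.4 and 86.3 TPM in KO, 95.2 and 97.6 in SETD2 FL libraries, and 78.1 and 77.2 in SETD2 C libraries (log2 fold change over KO -0.37, SE 0.06, adjusted p = 0.0028 from limma; over SETD2 FL -0.44, SE 0.06). PSMD2 was at 98.9 and 97.4 TPM in KO, 101 and 104 in SETD2 FL libraries, and 121 and 123 in SETD2 C libraries (0.16 over KO, SE 0.05, adjusted p = 0.031 from limma). PSMD2 lost its call when any 1 library was left out. PSMD12, a lid subunit, was at 57.2 and 55.4 TPM in KO, 66.1 and 72.0 in SETD2 FL libraries, and 74.4 and 75.3 in SETD2 C libraries, higher than KO by 0.26 (SE 0.05, adjusted p = 0.0076 from limma). It did not pass the test against SETD2 FL (-0.01, 95% interval -0.13 to 0.11). PSMD7, the partner of the deubiquitinase PSMD14, was at 127 and 111 TPM in KO, 131 and 133 in SETD2 FL libraries, and 109 and 109 in SETD2 C libraries, with a log2 fold change over SETD2 FL of -0.40 (SE 0.07, adjusted p = 0.0028 from limma).

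Among the chaperones of assembly, PSMG1 and PSMG2, which act as a pair on the alpha ring, were both lower than in KO. PSMG1 was at 145 and 137 TPM in KO, 140 and 148 in SETD2 FL libraries, and 115 and 125 in SETD2 C libraries (-0.38 over KO, SE 0.06, adjusted p = 0.0023 from limma; -0.39 over SETD2 FL, SE 0.06, adjusted p = 0.0017). PSMG2 was at 54.8 and 54.0 TPM in KO, 46.4 and 51.6 in SETD2 FL libraries, and 51.3 and 52.3 in SETD2 C libraries. Its call of -0.22 over KO (SE 0.06, adjusted p = 0.021 from limma) was lost under each of the other 3 scalings and with any 1 library left out. PSMG3 was at 112 and 127 TPM in KO, 124 and 118 in SETD2 FL libraries, and 125 and 130 in SETD2 C libraries, and PSMG4 at 42.2 and 41.7, 41.9 and 42.0, and 43.7 and 47.6. Neither of this second pair passed. Of the cap chaperones PSMD10, also known as gankyrin, was at 106 and 111 TPM in KO, 102 and 109 in SETD2 FL libraries, and 137 and 138 in SETD2 C libraries. Both SETD2 C libraries were the highest, by a log2 fold change of 0.19 over KO (SE 0.05, adjusted p = 0.022 from limma) and 0.25 over SETD2 FL (SE 0.05, adjusted p = 0.0075). The call over KO was lost without KO replicate 2 (adjusted p = 0.13) or SETD2 C replicate 1 (0.082) or 2 (0.093), and without trend (0.077). PSMD9 was lower than in KO, at 79.2 and 77.5 TPM against 88.7 and 80.3.

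The other genes of the pathway came from lists written for this work. Relative to SETD2 FL, the members called were 1 higher and 2 lower of the 14 associated and assembly factors, 4 and 1 of the 8 NRF1 genes, 1 and 1 of the 9 tested shuttle and unfoldase genes, 1 and 1 of the 6 ubiquitin genes, none of the 3 SPOP ligase genes and 1 and 2 of the 11 MHC class I genes. Of all genes tested, 21.4% were called higher and 16.8% lower with SETD2 C than with SETD2 FL. No gene of these lists was called for SETD2 FL relative to KO by limma. An unadjusted limma p under 0.05 was met by 0 to 4 genes a list, against 15.9% of all genes. The values that follow are for SETD2 C relative to KO, where 21.1% of all genes were called higher and 15.1% lower. Of the 14 associated and assembly factors, 3 were higher with SETD2 C than in KO and 2 lower, with a median of 0.03. These counts lay near the shares over all genes. The largest changes were in AKIRIN2, which brings proteasomes into the nucleus, at 49.1 and 51.3 TPM in KO and 73.4 and 79.2 with SETD2 C (0.45, SE 0.06, adjusted p = 0.0014 from limma), and in the ubiquitin receptor ADRM1 (-0.34, adjusted p = 0.0063, and 0.055 without scaling). Of 8 genes acting in the control of proteasome genes by NRF1, 4 were higher and 1 lower, with a median of 0.24. The small MAF gene MAFF was at 2.02 and 2.32 TPM in KO, 2.13 and 2.26 in SETD2 FL libraries, and 6.15 and 6.53 in SETD2 C libraries (1.23 over KO, SE 0.12, adjusted p = 0.00037 from limma), the 1 gene of these lists past a 2-fold change over KO. MAFK rose by 0.75 (adjusted p = 0.00055 from limma), whereas NFE2L1 itself was not called. Among the 14 tested members whose promoter holds the antioxidant response element core, 9 were lower and 2 higher than in KO with a median of -0.24, and among the 24 tested members with a promoter that lacks it, 8 were lower and 2 higher with a median of -0.07. This split was not tested.

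Of the 6 ubiquitin and ubiquitin-activating genes, 1 was higher and 3 were lower than in KO, with a median of -0.18. Of the 9 tested shuttle factors and unfoldase genes 2 were lower, among them UBQLN4, a carrier of ubiquitinated substrates (-0.29, adjusted p = 0.011 from limma), whose call was lost without scaling (0.16), with TPM recomputed without mitochondrially encoded genes and SETD2 (0.056), and without KO replicate 2 (0.064) or SETD2 C replicate 2 (0.054). None of the 3 genes of the SPOP ligase, which targets SETD2, passed in any comparison, and the largest values over KO were -0.20 for SPOP and -0.14 for CUL3. Of these 3, 2 had an unadjusted limma p under 0.05 relative to KO, as did 47.1% of all genes. Of 11 tested genes of the MHC class I peptide pathway, TAP2 was lower than in KO (-0.39, adjusted p = 0.028 from limma). It lost this call with any 1 of the 4 libraries left out (adjusted p of 0.085 to 0.094) and without scaling (0.075), without a filter (0.081) or without trend (0.063). NLRC5, an activator of class I genes, had 0.70 without passing (adjusted p = 0.068).

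SETD2 FL was compared with KO in the same fit. No member was called at the adjusted p (limma), where 0.207% of all genes were called. At an unadjusted p under 0.05, 5 members passed, 3 higher and 2 lower, against 15.9% of all genes. Groups did not overlap for 26 of the 44 members, against 48.2% of all genes. The largest values, none of which passed, were 0.27 for PSMD12 (SE 0.05, adjusted p = 0.11) and 0.18 for PSME3 (SE 0.06, adjusted p = 0.20) above KO, and -0.22 for PSMB9 (SE 0.15, adjusted p = 0.50) and -0.22 for PSME1 (SE 0.07, adjusted p = 0.22) below it. The members' median was 0.04 against 0.01 for all genes. PSME3 thus had a fitted value above KO with SETD2 FL and below KO with SETD2 C, and the difference between the constructs was the one tested above.

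KO was compared with WT in batch 1 to see the transcripts when SETD2 is lost. Most members had fitted values above WT, 4 of them called. The background was 1.32% of all 14746 genes higher and 3.17% lower. PSMD5 also met the threshold, as lower, but entered the test only through WT, where it was high, and is described apart. Of the 45 members tested, 37 had fitted values above 0, and their median was 0.12 against -0.01 for all genes. It stayed above the median of all genes under each of the 4 scalings, by 0.09 to 0.14. Both KO libraries lay above both WT libraries for 25 members, against 27.4% of all genes. The first WT library, with the largest mitochondrial share, held the lowest unscaled TPM of 37 of the 45 members, and after scaling the lowest of 13. Without it none of the 4 rises was called, and the members' median was 0.17. Nor was any called without either of the KO libraries.

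The 4 that rose were PSMD12, PSMC5, PSMD11 and PSMD1. PSMD12 was at 69.2 and 90.2 TPM in WT and 120 and 130 in KO (log2 fold change 0.53, SE 0.09, adjusted p = 0.027 from limma). PSMC5, an ATPase, was at 154 and 179 TPM in WT and 235 and 243 in KO (0.39, SE 0.07, adjusted p = 0.035 from limma). PSMD11, a lid subunit, was at 96.8 and 111 in WT and 147 and 142 in KO (0.35, SE 0.07, adjusted p = 0.0425 from limma), and PSMD1 at 90.7 and 111 in WT and 138 and 142 in KO (0.35, SE 0.07, adjusted p = 0.0465). WT and KO did not overlap for any of the 4. None of the 4 reached a 2-fold change, a rule met by 1.36% of all genes in either direction. The calls were near the threshold, and of the 4 only PSMD12 and PSMC5 were called under all 4 scalings. PSMD11 lost its call when any 1 library was left out, with log2 fold changes of 0.33 to 0.36.

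PSMD12, PSMC5 and PSMD11 lie on chromosome 17, with PSMB3, PSMB6, PSMD3 and PSME3. All 7 members on this chromosome had fitted values above 0, with a median of 0.34. The median of the 903 genes tested on chromosome 17 was 0.13, the highest of any chromosome, and 4.21% of them were called higher. Of the other 38 members 30 had fitted values above 0, with a median of 0.08 against -0.01 for all genes off chromosome 17. Whether the members' values move with those of the chromosome was not tested. In batch 2, where all groups are KO cells, PSMD12 was called higher with SETD2 C than in KO. PSMB3, PSMB6, PSMD3 and PSME3 were called lower, but of these only PSME3 was called under all 4 scalings. PSMC5 and PSMD11 were not called there.

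**Figure D5:**
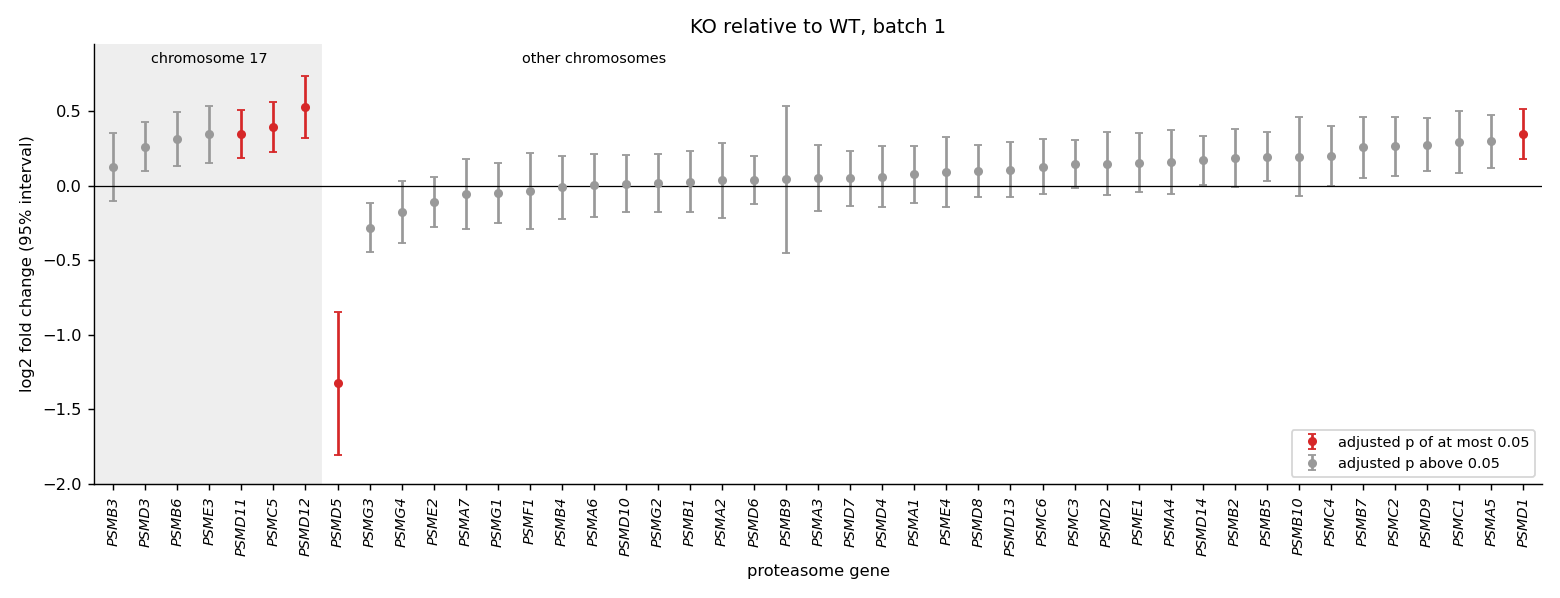
Fitted log2 fold change of KO over WT with its 95% interval (vertical axis) for 45 proteasome genes (horizontal axis), 2 libraries a group; the shaded genes lie on chromosome 17 and red marks an adjusted p of at most 0.05. The 7 genes of chromosome 17 lie above 0, and PSMD5 stands apart below. PSMD5 passed the filter through WT alone, so its mark and interval are not read as a test.

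PSMD5, a chaperone that holds the ATPase base until the cap is complete, was at 0.81 TPM in both WT libraries and at 0.06 and 0.02 in KO. It was low in all 6 libraries of batch 2 too, at 0.08 in both KO, 0.01 and 0.07 in SETD2 FL libraries, and 0.10 and 0.08 in SETD2 C libraries. PSMD5 spans chromosome 9 from 120815496 to 120842951 of GRCh38 on the minus strand, in 10 exons. It passed the filter on low TPM through the WT libraries alone and could be called in 1 direction only, so its difference is given as a description, with no test. The other cap chaperones did not pass the test. PSMD9 was at 69.8 and 89.7 TPM in WT and 105 and 105 in KO, and PSMD10 at 81.4 and 86.2 in WT and 95.1 and 89.9 in KO.

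The catalytic subunits were above WT in KO without passing, PSMB5 at 153 and 178 TPM in WT and 206 and 207 in KO, PSMB6 at 219 and 241 against 310 and 314, and PSMB7 at 236 and 246 against 320 and 310. Among the activators PSME3 was at 115 and 151 in WT and 180 and 185 in KO (adjusted p = 0.064 from limma), PSME1 at 49.4 and 54.8 against 60.5 and 66.4, PSME2 at 73.0 and 83.2 against 81.96 and 76.28, and PSME4 at 30.3 and 29.9 against 35.9 and 34.4. PSMF1 was at 204 and 245 in WT and 267 and 214 in KO. After scaling, the core chaperones did not share the upward tilt, with 3 of 4 fitted values below 0. PSMG1 was at 144 and 163 TPM in WT and 154 and 171 in KO, PSMG2 at 24.8 and 26.6 against 28.87 and 28.03, PSMG3 at 119 and 134 against 116 and 111, and PSMG4 at 26.2 and 28.1 against 25.4 and 27.1. All 6 ATPases and all 11 non-ATPase cap subunits had fitted values above 0, and their summed TPM was 18.7% and 11.6% higher than in WT after scaling. The sum of the core chaperones differed from WT by -9.11% after scaling and by -0.484% without. Of the other pathway lists, the 1 gene called was DDI2, the protease that releases NRF1 from the membrane, with a log2 fold change of 0.60 (adjusted p = 0.023 from limma). Its call was lost without WT replicate 1 (adjusted p = 0.056) or either KO library (0.099 and 0.12). It counts in both the NRF1 and the shuttle list.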

How the data were processed

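RNA-seq of 10 HEK293T libraries was analysed, 2 for each of 5 groups. Per the labels and methods, RNA was ribodepleted and poly(A)-enriched, and the authors aligned reads with STAR 2.6.1c to hg38 with Ensembl 96 gene models. The authors deposited TPM per gene from RSEM 1.3.0 in a table per batch, without scaling between libraries. Counts were not used here, so depth, and the counting error it sets, are unknown. The 14 ChIP-seq samples were not analysed here.

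Per library, a scaling factor was taken as the median, over genes, of the ratio of TPM to the gene's geometric mean in its table, using GENCODE 44 protein-coding genes and lncRNAs at 1 TPM or more throughout, and TPM was divided by it. Genes with at least 0.5 TPM in 2 or more libraries entered limma 3.58.1 (R 4.3.3, eBayes with trend) as the log2 of scaled TPM plus 0.5, separately per batch, with 1 fit for the 3 groups of batch 2. Reported fold changes carry the pseudocount and so understate those of low genes. P-values were adjusted by the Benjamini-Hochberg method over all genes tested, and calls were made at 0.05. The study also required a 2-fold change, which was used as a second rule. Class sums were compared by exact permutation over libraries, two-sided (scipy 1.17.1). The fit was checked on simulated data. Of changes of log2 size 0.3, it recovered 12 of 50 for SETD2 C over KO and 15 of 50 for SETD2 FL over KO. For SETD2 C over SETD2 FL it recovered 20 of 50, and for KO over WT 0 of 50. At a size of 0.6 it recovered 45, 39, 37 and 20 of 50 in the same order. A gene that did not pass may thus have changed by such an amount.

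Genes were named by a rule: catalytic and inducible subunits, activators, inhibitor, core chaperones, untested members, the 5 largest called changes each way in each comparison (2 where none passed), and in other lists calls past 2-fold and the 2 largest changes, taken for SETD2 C over KO. Members and lists were chosen with earlier results of these data known. Nothing says that replicates came from separate cultures, so p-values measure the spread between these libraries, which may be technical. WT and KO share the replicate numbers 1 and 2. The deviations of same-numbered libraries correlated at 0.147 over genes, with 2 pairs, so the numbers were not taken as pairs. Alternatives covered pseudocount, filter, scaling, trend, gene types, call rule, the groups fitted, and each library left out. A few genes of the pathway and marker lists are not reported here.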

Additional observations from a re-analysis of the deposited data

How the results depend on the processing

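Depth is unknown, and 2 libraries a group limit every call. Of 47 gene results chosen by the naming rule (members and pathway genes), 25 kept their direction and their side of the threshold in every alternative run other than the 2-fold rule, and the 1 change of direction was CUL3 for SETD2 C over KO without scaling, at 0.0021. The cause of the changes below was not tested, except that the 2-fold rule and stricter filters admit fewer genes by construction.

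For SETD2 C relative to KO, no scaling gave 7 members higher and 5 lower and a median of 0.038, the 2-fold rule gave 0 and 0, no trend gave 2 and 11, and rescaling without mitochondrial genes and SETD2 gave 11 lower and a median of -0.012. The median was -0.081 without a filter and -0.048 under quantile normalization. Without scaling, the log2 differences in summed TPM were 0.11 for alpha, -0.011 for constitutive beta, 0.14 for ATPase and 0.037 for non-ATPase subunits, 0.16 for cap chaperones, -0.29 for activators, -0.044 for the inhibitor, -0.047 for core chaperones and 0.034 for all members. Leaving out a library gave 2 to 3 higher, 7 to 13 lower and medians of -0.14 to -0.085. The fewest lower, 7, came without SETD2 C replicate 2, and 10 came without KO replicate 2. For the members higher, 2 remained called in number without KO replicate 2 or either SETD2 C library.

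Relative to SETD2 FL, no scaling gave 6 higher, 7 lower and a median of -0.032, quantile normalization 4 higher and -0.084, the stricter filter (1 TPM or more throughout) 1 higher, and the 2-fold rule 1 higher and 0 lower. The median was -0.12 without a filter and -0.13 after rescaling. Without scaling the sums differed by 0.016 for alpha, -0.011 for constitutive beta, 0.041 for ATPase and -0.042 for non-ATPase subunits, 0.16 for cap chaperones, -0.30 for activators, -0.044 for core chaperones and -0.014 for all members. Leaving out a library gave 2 higher, 12 to 17 lower and medians of -0.20 to -0.12, with the 12 coming without SETD2 C replicate 2.

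For SETD2 FL relative to KO no alternative called a member. The median was 0.10 after rescaling and 0.011 to 0.046 with a library left out, and unscaled sums differed by 0.090 for alpha, 0.00080 for constitutive beta, 0.0073 for cap chaperones and 0.048 for all members.

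For KO relative to WT, 0 members were higher without a filter, without trend and under the 2-fold rule, 2 with all gene types and 7 without scaling, and 0 were lower under the stricter filter. Without scaling the median was 0.25 and the sums differed by 0.23 for alpha, 0.27 for constitutive beta, 0.38 for ATPase and 0.29 for non-ATPase subunits, 0.27 for cap chaperones, 0.30 for activators, -0.0070 for core chaperones and 0.27 for all members. Leaving out a library gave medians of 0.089 to 0.17, and PSMD11 was not called in any of these runs. Without either WT library PSMD5 failed the filter. With the replicate block, 6 members were higher and 2 lower (442 and 827 of all genes).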
